A study of Mus with 18 samples.

Results

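Setting LPS + POx-SA against LPS alone asks how the transcriptome of LPS-stimulated macrophages differed when POx-SA, 1 of 4 polymers in the series, whose title names a sialic acid polymer, was given after the LPS. It rests on 6 of the 18 libraries of the series, 3 from cells given LPS and then POx-SA and 3 from cells given LPS only, chosen by the treatment and the title in the labels. All libraries are RNA-seq of RAW264.7, a mouse line of macrophage-like cells derived from a tumour that was induced by Abelson murine leukaemia virus. The other groups, with 3 libraries each, are LPS followed by PPLG-SA, PPLG-2V-SA or PPLG-4V-SA, and cells without treatment. The labels give no dose, no time, no meaning of the polymer codes and no clone of the line. Nothing in them tells if the replicates were grown apart, so p-values measure only the spread between libraries, pooled over all groups, which may be technical.

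LPS is a glycolipid from the outer membrane that surrounds Gram-negative bacteria. Macrophages sense it through TLR4, whose adaptors MyD88 and TRIF activate NF-kB and MAP kinases and, through IRF3 and interferon beta, the response of interferon-stimulated genes. The title of the series names Siglecs, sialic acid-binding lectins of immune cells, many of which carry cytoplasmic motifs that recruit the phosphatases SHP-1 (Ptpn6) and SHP-2 (Ptpn11).

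The labelled cell type was met by most of its markers: 23 of 25 listed macrophage markers were tested, and the summed level of the list was 8489 to 10491 CPM with LPS + POx-SA, 10098 to 11019 CPM with LPS and 13578 to 14443 CPM in untreated cells. The complement markers C1qa and C1qc had 0 counts with LPS + POx-SA and with LPS, and C1qb had 2 and 0 counts. CPM scale counts to library size, here and in every other sum over a list by plain library totals, and for single genes by TMM-scaled totals, so a sum is not to be set against the level of a gene. Total counts were 13417940 to 16033361 with LPS + POx-SA, 14761261 to 15971157 with LPS and 9755591 to 10992859 in untreated cells. Replicate 3 stood apart in both groups compared. Relative to the mean of replicates 1 and 2, the median of the 4494 shortest genes was 0.29 higher on the log2 scale in replicate 3 of LPS + POx-SA and 0.31 higher in replicate 3 of LPS. The median of the 4494 longest genes was -0.30 and -0.34 on the same scale. Mitochondrially encoded genes took 7.17%, 5.10% and 4.92% of counts with LPS + POx-SA, against 3.16%, 3.15% and 2.90% with LPS. Cells labelled as untreated already held high levels of genes that LPS is known to induce. Nos2 (inducible nitric oxide synthase) stood at 1364, 1163 and 1234 CPM with LPS, below its 2526, 2562 and 2379.7 CPM in untreated cells, and Saa3 (an acute-phase protein) at 106, 149 and 161 CPM with LPS, below its 387, 373 and 371 CPM in untreated cells. Untreated levels are therefore given beside some genes below as a level only.

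With LPS + POx-SA, genes of antioxidant defence, heat shock and the mitochondrial genome were higher than with LPS alone, and interferon-stimulated genes, most cytokines other than Tnf, cytokine receptors and mitotic genes were lower. Of 13482 genes tested, 2992 were called higher (22.2%) and 3247 lower (24.1%), 46.3% in all, at an adjusted p below 0.05 by edgeR's quasi-likelihood test over all 18 libraries. Changes of at least 2-fold were called in 927 genes that rose and 1217 that fell. The median log2 fold change over all genes tested was 0.0016, with quartiles of -0.46 and 0.45. Groups did not overlap in 2212 of the genes called higher and 2767 of those called lower. The 18-library fit shares its estimate of spread with groups that varied less: the common dispersion was 0.0743 among the LPS + POx-SA libraries and 0.0501 among the LPS libraries, against 0.0219 in the shared fit. The other groups had common dispersions of 0.0019 to 0.0066. A fit to the 6 libraries alone tested 12418 genes and called 1335 higher (10.8%) and 1726 lower (13.9%), so its counts stand beside those of each list below. With the replicate number as a block, those 6 libraries gave 2601 higher (20.9%) and 2742 lower (22.1%). On the deposited FPKM values plus 1 the split was 2232 higher and 3934 lower. In what follows "rose" and "fell" are calls of the 18-library fit, and log2 fold changes are LPS + POx-SA minus LPS, ± SE. Unless stated otherwise, SE, intervals and adjusted p of single genes are also from this fit. They therefore understate the spread within the groups compared. Ccl2, for instance, had an adjusted p of 5.62e-11 in this edgeR fit and 0.000358 in the edgeR fit to the 6 libraries alone. List counts are to be read against the shares of all genes tested, 22.2% higher and 24.1% lower, or 10.8% and 13.9% in the 6 libraries alone. A list whose counts lie near these shares is not set apart from all genes tested.

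**Figure D1:**
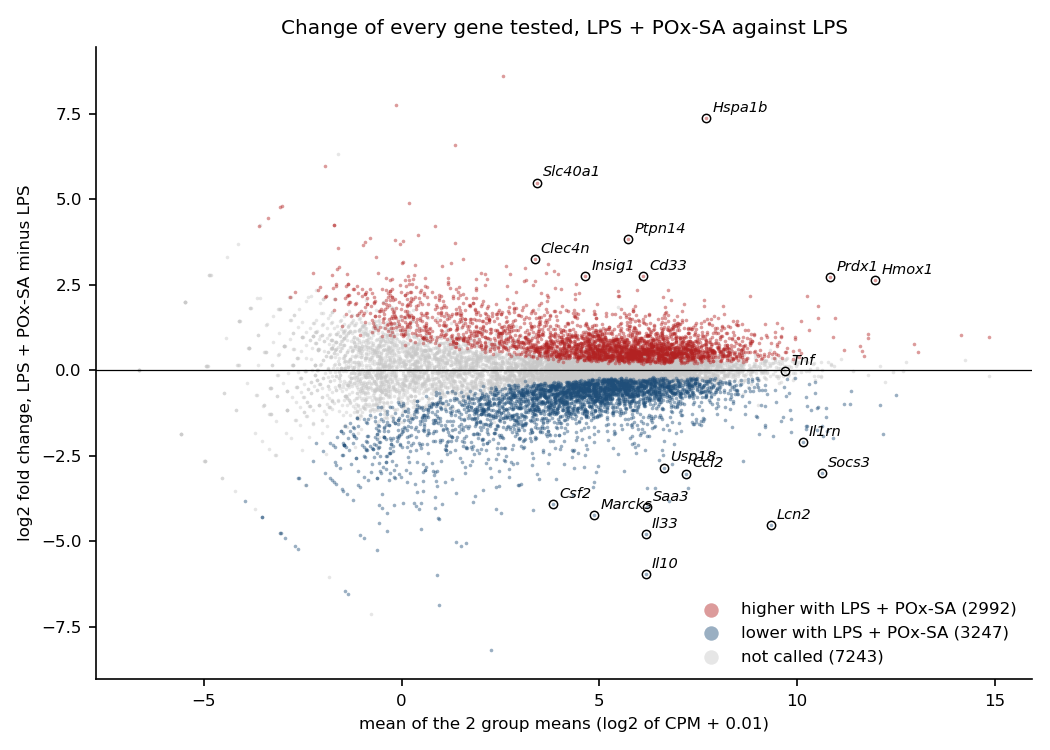
Log2 fold change (LPS + POx-SA minus LPS, y axis) against the mean of both group means (log2 of CPM + 0.01, x axis) for the 13482 genes tested, coloured by call in the 18-library fit. Labelled genes are described in the text; Tnf lies on the zero line at high expression, with Hmox1 and Prdx1 above it and Socs3 and Lcn2 below.

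Inducible HSP70 genes and the iron exporter ferroportin led the 12 largest rises among called, named genes whose groups did not overlap and that had at least 5 CPM on average in the higher group. Hspa1b, an inducible HSP70 chaperone, had 659, 233 and 343 CPM with LPS + POx-SA, against 3.62, 0.978 and 2.86 CPM with LPS (log2 fold change 7.37 ± 0.48, adjusted p = 3e-09). Its near-identical copy Hspa1a had 482 counts over the 3 LPS + POx-SA libraries against 1 count over the LPS libraries, a 541-fold difference with a counting interval of 96.6 to 21404. Reads shared by close copies were assigned in a way not given in the sources used here, so the split between these copies is uncertain. The rise covers every LPS + POx-SA library, but replicate 2 had only 2.04 CPM of Hspa1a, against 22.5 and 10.7 CPM in replicates 1 and 3. Untreated cells held 223, 237 and 242 CPM of Hspa1b, so LPS alone was the low group for this gene. Of Hspa1a, however, untreated cells had 0 counts.

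Slc40a1 encodes ferroportin, the iron exporter of the cell surface, and had 20.5, 18.6 and 23.5 CPM with LPS + POx-SA, against 0.839, 0.326 and 0.2 CPM with LPS (log2 fold change 5.49 ± 0.28, adjusted p = 2.07e-10). Its untreated level, 0.501, 0.35 and 0.782 CPM, was like that with LPS. Ptpn14, a protein tyrosine phosphatase, had 113, 91.3 and 94.4 CPM with LPS + POx-SA, against 7.75, 6.52 and 6.65 CPM with LPS (log2 fold change 3.83 ± 0.20, adjusted p = 2.07e-10). Untreated cells held 13.2, 14.4 and 15.2 CPM. The groups of these genes stood far apart, and POx-SA libraries agreed closely with one another. Clec4n, which encodes the fungal-mannan receptor dectin-2, had 16.9, 16.0 and 22.9 CPM with LPS + POx-SA, against 1.87, 1.56 and 2.39 CPM with LPS (log2 fold change 3.26 ± 0.21, adjusted p = 3.05e-09). Cd33, a Siglec, had 96.0, 163 and 97.4 CPM with LPS + POx-SA, against 20.7, 16.4 and 16.2 CPM with LPS (log2 fold change 2.74 ± 0.17, adjusted p = 1.77e-09). Insig1, which holds the sterol-sensing SREBP complex in the endoplasmic reticulum, had 32.4, 52.1 and 46.0 CPM with LPS + POx-SA, against 7.81, 5.21 and 6.32 CPM with LPS (log2 fold change 2.75 ± 0.17, adjusted p = 1.26e-09). All POx-SA values of these genes lay above all LPS values and above the untreated ones.

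The other rises among the 12 largest were Adcy3, an adenylyl cyclase (3.26 ± 0.45), Chil6, a chitinase-like protein (3.05 ± 0.54), and Serpinb9b, a serine protease inhibitor (2.99 ± 0.39). Slc39a4, a zinc importer, rose with a log2 fold change of 2.89 ± 0.22, and Rab15, a small GTPase of endosomal recycling, with a log2 fold change of 2.81 ± 0.24. Chil6 was at 8.09, 7.86 and 17.2 CPM with LPS + POx-SA, against 2.07, 0.456 and 1.46 CPM with LPS, yet at 48.3, 48.0 and 45.5 CPM in untreated cells, so it stood between those groups. Serpinb9b varied among the POx-SA libraries, at 26.6, 5.74 and 14.2 CPM.

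The largest falls included secreted inflammatory products. Il10, the anti-inflammatory cytokine, had 3.34, 1.36 and 2.04 CPM with LPS + POx-SA, against 100.4, 173 and 151 CPM with LPS (log2 fold change -5.97 ± 0.24, adjusted p = 1.43e-11), below the 13.2, 13.2 and 12.8 CPM of untreated cells too. Lcn2, which encodes lipocalin-2, a protein that withholds iron from bacteria by binding their siderophores, had 52.6, 45.7 and 61.3 CPM with LPS + POx-SA, against 1132, 1161 and 1420.2 CPM with LPS (log2 fold change -4.54 ± 0.14, adjusted p = 6.27e-13). Untreated cells held 1610.2, 1561 and 1578 CPM of Lcn2. Il33, an IL-1 family alarmin, had 6.31, 3.63 and 5.01 CPM with LPS + POx-SA, against 137, 152 and 129 CPM with LPS (log2 fold change -4.80 ± 0.20, adjusted p = 1.55e-11). Saa3 had 7.72, 8.62 and 9.38 CPM with LPS + POx-SA, against 106, 149 and 161 CPM with LPS (log2 fold change -4.02 ± 0.15, adjusted p = 1.05e-11). For Lcn2, Il33 and Saa3 the order was the same: lowest with LPS + POx-SA, higher with LPS and highest in untreated cells.

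Tnfaip6, a hyaluronan-binding protein that TNF induces, had 0.594, 0.529 and 0.635 CPM with LPS + POx-SA, against 10.7, 10.6 and 10.9 CPM with LPS (log2 fold change -4.17 ± 0.39, adjusted p = 1.82e-07). Untreated cells held 0.251, 0.35 and 0.782 CPM. Here the POx-SA level was close to the untreated one. Marcks, an actin-binding protein kinase C substrate, had 3.93, 2.49 and 2.33 CPM with LPS + POx-SA, against 58.2, 66.2 and 41.6 CPM with LPS (log2 fold change -4.24 ± 0.19, adjusted p = 5.31e-11). Mmp13, a collagenase, fell with a log2 fold change of -4.08 ± 0.30 to 1.78, 0.831 and 0.705 CPM, against 20.4, 21.2 and 14.6 CPM with LPS, and Plekhg5, a guanine nucleotide exchange factor, had a log2 fold change of -4.05 ± 0.29. Steap4, a metalloreductase, had 1 count over the LPS + POx-SA libraries against 440 over the LPS libraries, 392-fold lower with a counting interval of 70.0 to 15524. Ccno, a member of the cyclin family, Csn1s1, a casein, and Gcnt2, a glycosyltransferase that branches poly-N-acetyllactosamine, fell to at most 0.297 CPM in any POx-SA library (log2 fold changes -5.15 ± 0.48, -5.05 ± 0.50 and -5.02 ± 0.61). All 24 of these rises and falls were called in each of 17 alternative analyses.

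**Figure D2:**
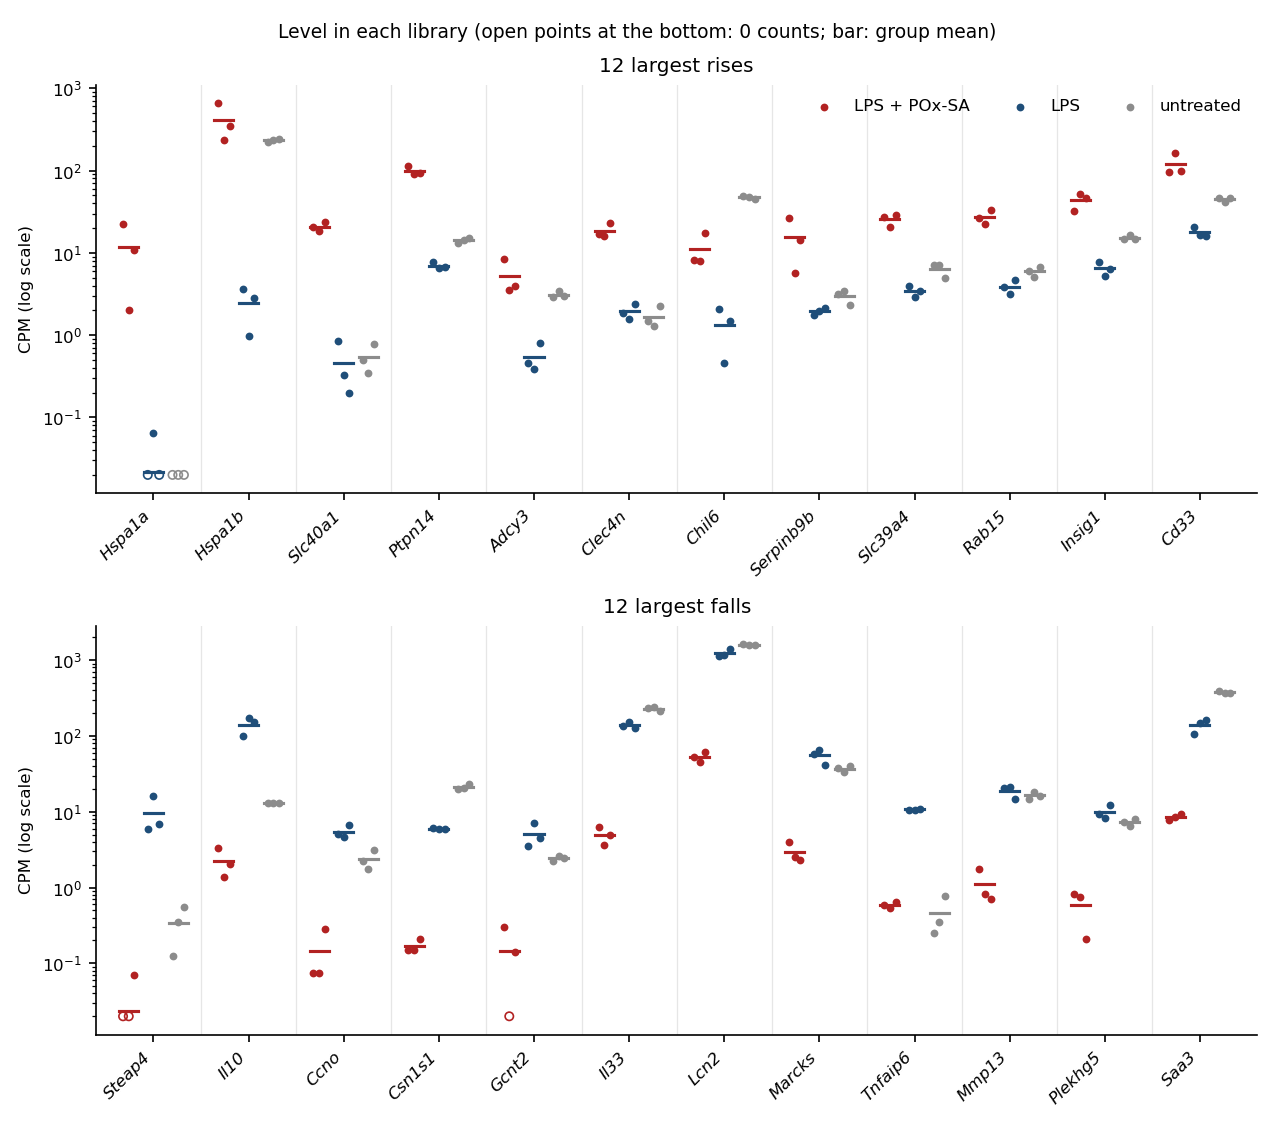
CPM in each library (log scale, y axis) of the 12 genes with the largest rise and the 12 with the largest fall, with LPS + POx-SA (red), LPS (blue) and untreated cells (grey); bars are means of 3 libraries and open points mark 0 counts. The LPS + POx-SA and LPS points do not overlap for any of the 24 genes. Hspa1b and Lcn2 show that untreated cells could lie near either group, and Chil6 that they could lie above both.

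Cytokine messages moved unevenly. Of 26 inflammatory cytokine genes tested, 17 fell, 4 rose and 5 were not called (median log2 fold change -0.73, against 0.0016 over all genes tested). In the 6 libraries alone 11 fell and 3 rose. Tnf, the tumour necrosis factor gene, was not called: it had 752, 790.0 and 928 CPM with LPS + POx-SA, against 831, 705 and 981 CPM with LPS (log2 fold change -0.03 ± 0.11, adjusted p = 0.862, 95% interval -0.27 to 0.21), and the libraries of the groups interleaved. Il1b had 16.3, 7.03 and 13.6 CPM with LPS + POx-SA, against 16.6, 17.6 and 18.6 CPM with LPS (log2 fold change -0.51 ± 0.22, adjusted p = 0.0629, 95% interval -0.97 to -0.05), and replicate 2 of LPS + POx-SA was the lowest library. Il6 had 9.73, 4.38 and 5.71 CPM with LPS + POx-SA, against 17.1, 22.4 and 13.3 CPM with LPS (log2 fold change -1.41 ± 0.23, adjusted p = 9.61e-05). Untreated cells held 5.89, 5.26 and 6.59 CPM. Its POx-SA range covered the untreated one and lay under all LPS libraries.

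Csf2, the granulocyte-macrophage colony-stimulating factor, had 1.86, 1.13 and 2.26 CPM with LPS + POx-SA, against 17.3, 33.8 and 28.9 CPM with LPS (log2 fold change -3.92 ± 0.26, adjusted p = 3.47e-09). Il27, an IL-12 family cytokine, had 2.45, 2.04 and 2.47 CPM with LPS + POx-SA, against 10.1, 10.5 and 14.2 CPM with LPS (log2 fold change -2.32 ± 0.19, adjusted p = 3.51e-08). Csf2 with LPS + POx-SA was also below its 12.5, 16.1 and 13.3 CPM in untreated cells, and Il27 close to its 3.13, 3.50 and 3.46 CPM there. Il12b fell with a log2 fold change of -1.89 ± 0.58 at 2.74 CPM or less in every library, and this call was lost in the 6 libraries alone (adjusted p = 0.0708) and without replicate 2 of LPS + POx-SA. Against the majority, Flt3l, a dendritic cell growth factor, had 26.1, 22.3 and 26.9 CPM with LPS + POx-SA, against 10.7, 7.23 and 12.6 CPM with LPS (log2 fold change 1.30 ± 0.16, adjusted p = 5.63e-06). Il16, a lymphocyte chemoattractant, had 48.8, 37.6 and 51.0 CPM with LPS + POx-SA, against 21.5, 26.2 and 26.1 CPM with LPS (log2 fold change 0.90 ± 0.11, adjusted p = 4.71e-06). Both were near the level of untreated cells, 25.8, 18.1 and 19.3 CPM for Flt3l and 39.3, 43.0 and 38.7 CPM for Il16. Ifnb1, interferon beta, stayed at 1.34 CPM or less in every library, and its call as higher (1.99 ± 0.71) was lost in 7 of the 14 alternatives that gave it a value, namely those on FPKM values and those without replicate 3 of LPS + POx-SA, without any single LPS library or without replicate 3 of both groups.

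Among 13 chemokine genes tested, 6 fell, 1 rose and 6 were not called (median -0.76), and the same 6-library fit called 6 lower and 0 higher. Ccl2, the monocyte chemoattractant, had 31.8, 25.7 and 38.1 CPM with LPS + POx-SA, against 240.2, 237 and 306 CPM with LPS (log2 fold change -3.03 ± 0.14, adjusted p = 5.62e-11). Its homologue Ccl7 had 12.4, 8.24 and 13.1 CPM with LPS + POx-SA, against 80.1, 84.7 and 96.0 CPM with LPS (log2 fold change -2.95 ± 0.21, adjusted p = 6.5e-09). Cxcl10, an interferon-induced T cell chemoattractant, had 5.03 ± 1.79 CPM with LPS + POx-SA, against 24.3 ± 2.99 CPM with LPS (SD, n = 3 each; log2 fold change -2.27 ± 0.23, adjusted p = 5.23e-07). Ccl4, an inflammatory CC chemokine, fell less, to 1051, 1039.6 and 1164 CPM, against 2187, 2317 and 2476 CPM with LPS (-1.10 ± 0.12), and stood at 927, 1051 and 923 CPM in untreated cells. Ccl2 and Ccl7 with LPS + POx-SA were below every untreated library, whereas Cxcl10 and Ccl4 were near the untreated level. Cxcl16, the 1 member called higher (0.49 ± 0.18), overlapped between groups and was not called in 7 of 17 alternatives.

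Most of the chemoattractant and cytokine receptors tested fell as well. Of 13 chemokine and chemoattractant receptors, 8 fell and 1 rose (median -1.28; 6 and 0 in the 6 libraries alone, with or without the block). C3ar1, the receptor of the complement fragment C3a, had 118, 98.4 and 85.7 CPM with LPS + POx-SA, against 248, 357 and 239 CPM with LPS (log2 fold change -1.48 ± 0.14, adjusted p = 1.64e-07). Cx3cr1, the fractalkine receptor, had 5.42, 11.6 and 9.66 CPM with LPS + POx-SA, against 20.6, 16.7 and 24.8 CPM with LPS (log2 fold change -1.22 ± 0.20, adjusted p = 0.0001). The called rise, S1pr2 (0.26 ± 0.10), was lost in 10 of 17 alternatives. Of 19 cytokine receptors and antagonists, those of IL-1, TNF and IL-10 among them, 14 fell and 0 rose (median -0.88), and in the 6 libraries alone 11 fell and 0 rose. Tnfrsf1b, TNF receptor 2, had 121, 89.3 and 115 CPM with LPS + POx-SA, against 617, 729.7 and 692 CPM with LPS (log2 fold change -2.64 ± 0.12, adjusted p = 4.41e-11). Il1rn, the IL-1 receptor antagonist, had 354, 439 and 482 CPM with LPS + POx-SA, against 1669.5, 1888 and 1944 CPM with LPS (log2 fold change -2.11 ± 0.12, adjusted p = 7.11e-10), and 3146, 3390.1 and 3165 CPM in untreated cells. Il4ra fell with a log2 fold change of -1.62 ± 0.11 and Il13ra1, its partner in the type II IL-4 receptor, with a log2 fold change of -2.19 ± 0.11. All POx-SA libraries held less of these 4 messages than any LPS or untreated library.

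Interferon-stimulated genes fell broadly. Of 48 interferon-stimulated genes tested, 38 fell, 1 rose and 9 were not called (median -1.16), with 32 and 1 in the 6 libraries alone. The summed level of the list was 2430 to 2667 CPM with LPS + POx-SA, 4362 to 4740 CPM with LPS and 2176 to 2275 CPM in untreated cells. Usp18, which removes ISG15 from proteins and dampens interferon receptor signalling, had 20.9, 23.7 and 27.3 CPM with LPS + POx-SA, against 157, 184 and 179 CPM with LPS (log2 fold change -2.85 ± 0.12, adjusted p = 1.55e-11). Untreated cells held 46.0, 50.1 and 52.5 CPM. Xaf1, a pro-apoptotic interferon target, had 7.20, 5.90 and 7.40 CPM with LPS + POx-SA, against 48.9, 47.7 and 64.9 CPM with LPS (log2 fold change -2.97 ± 0.13, adjusted p = 4.41e-11). Oas2, a sensor of double-stranded RNA, had 27.6, 22.1 and 21.2 CPM with LPS + POx-SA, against 118, 125 and 115 CPM with LPS (log2 fold change -2.34 ± 0.11, adjusted p = 5.12e-11). Rtp4 fell with a log2 fold change of -2.82 ± 0.16. These 4 were below their untreated level in every POx-SA library. The exception was Sp110, a nuclear body protein, with 91.5, 72.6 and 69.5 CPM with LPS + POx-SA, against 49.6, 43.1 and 31.3 CPM with LPS (log2 fold change 0.91 ± 0.13, adjusted p = 2.81e-05). Values of Oas2 and Sp110 are uncertain, since close relatives of both may share reads.

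Guanylate-binding proteins and immunity-related GTPases, interferon-induced enzymes that attack the vacuoles of intracellular microbes, had 12 of 15 tested members lower and 0 higher (median -1.96; 11 and 0 in the 6 libraries alone). Gbp7 had 1.78, 1.74 and 0.564 CPM with LPS + POx-SA, against 15.6, 18.9 and 7.32 CPM with LPS (log2 fold change -3.36 ± 0.33, adjusted p = 3.75e-07). Gbp9 had 1.34, 1.81 and 1.20 CPM with LPS + POx-SA, against 14.1, 21.1 and 8.91 CPM with LPS (log2 fold change -3.34 ± 0.26, adjusted p = 2.39e-08). Igtp had 2.75, 1.36 and 1.48 CPM with LPS + POx-SA, against 9.10, 12.3 and 10.3 CPM with LPS (log2 fold change -2.50 ± 0.24, adjusted p = 2.83e-07). The summed level of the list was 36.2 to 38.4 CPM with LPS + POx-SA, 101 to 147 CPM with LPS and 21.0 to 36.5 CPM in untreated cells. These genes lie in families of close copies, and shared reads make single members uncertain.

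Factors upstream of these genes were lower as well. Of 22 interferon regulatory factors, STATs and JAKs, 12 fell, 3 rose and 7 were not called (median -0.54; 11 and 0 in the 6 libraries alone). Stat2 had 30.0, 27.9 and 27.8 CPM with LPS + POx-SA, against 66.8, 78.9 and 59.6 CPM with LPS (log2 fold change -1.26 ± 0.10, adjusted p = 3.48e-08). Irf9, its partner in the interferon response, had 23.1 ± 2.62 CPM with LPS + POx-SA, against 57.7 ± 7.84 CPM with LPS (log2 fold change -1.32 ± 0.12, adjusted p = 1.87e-07). Stat2 lay below the untreated range and Irf9 above it. Stat5a, which acts downstream of cytokine receptors, fell with a log2 fold change of -1.17 ± 0.09. Irf5, a factor activated by TLRs, had 102, 58.4 and 79.3 CPM with LPS + POx-SA, against 51.1, 54.4 and 50.7 CPM with LPS and was called higher (0.62 ± 0.14), but not in the 6 libraries alone (adjusted p = 0.0627). Stat6, the factor of IL-4 signalling, overlapped between groups and was called higher (0.35 ± 0.11) in 11 of 17 alternatives.

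Proximal TLR genes showed no common direction. Of 31 receptors and adaptors, 9 rose, 5 fell and 17 were not called (median 0.07; 5 and 4 in the 6 libraries alone). Tlr4 itself had 56.3, 48.3 and 26.2 CPM with LPS + POx-SA, against 44.9, 59.8 and 25.3 CPM with LPS (log2 fold change 0.01 ± 0.25, adjusted p = 0.986, 95% interval -0.52 to 0.53), and its co-receptor Cd14 had 1619.6, 1162 and 1625 CPM with LPS + POx-SA, against 1257, 1424 and 1565 CPM with LPS (log2 fold change 0.05 ± 0.12, adjusted p = 0.745, 95% interval -0.21 to 0.31). Neither was called, and replicate 3 held the least Tlr4 in both groups. Tlr7, the endosomal receptor of single-stranded RNA, had 52.7, 37.7 and 31.4 CPM with LPS + POx-SA, against 16.1, 23.1 and 15.1 CPM with LPS (log2 fold change 1.16 ± 0.17, adjusted p = 2.93e-05). Irak2, a kinase that prolongs TLR signalling, had 144, 180.2 and 191 CPM with LPS + POx-SA, against 92.8, 73.1 and 96.9 CPM with LPS (log2 fold change 0.97 ± 0.11, adjusted p = 2.59e-06). Ikbke, which phosphorylates IRF3 and IRF7, had 53.5, 32.3 and 39.3 CPM with LPS + POx-SA, against 124, 139.6 and 123 CPM with LPS (log2 fold change -1.63 ± 0.14, adjusted p = 8.43e-08). Myd88 fell with a log2 fold change of -0.83 ± 0.12.

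NF-kB genes leaned lower. Of 28 subunits, kinases and inhibitors, 14 fell and 5 rose (median -0.22), with 10 and 2 in the 6 libraries alone and 11 and 2 with the block, and 3 higher without LPS replicate 1. Nfkbia, the inhibitor that NF-kB induces against itself, had 318, 236 and 279 CPM with LPS + POx-SA, against 1060.1, 982 and 1155 CPM with LPS (log2 fold change -1.94 ± 0.11, adjusted p = 7.11e-10), and 1694, 1668 and 1646 CPM in untreated cells. Bcl3, a nuclear IkB protein, had 36.5, 24.1 and 27.1 CPM with LPS + POx-SA, against 103, 112 and 97.2 CPM with LPS (log2 fold change -1.83 ± 0.14, adjusted p = 1.81e-08). Map3k14, the kinase NIK of the alternative NF-kB pathway, fell with a log2 fold change of -1.18 ± 0.10. Ikbkg, the NEMO subunit, had 118, 99.3 and 85.4 CPM with LPS + POx-SA, against 57.8, 50.1 and 40.9 CPM with LPS (log2 fold change 1.02 ± 0.13, adjusted p = 4.94e-06). Nfkbid, another nuclear IkB protein, had 65.2, 89.2 and 82.4 CPM with LPS + POx-SA, against 31.8, 25.5 and 31.3 CPM with LPS (log2 fold change 1.42 ± 0.12, adjusted p = 5.44e-08), so Nfkbia and Nfkbid, inhibitors of the same family, moved in opposite directions.

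Feedback regulators divided in the same way. Of 27, 12 fell and 7 rose (median -0.40; 11 and 5 in the 6 libraries alone). Socs3, which blocks receptors of the IL-6 family, had 380.3, 308 and 354 CPM with LPS + POx-SA, against 2735, 2849 and 2891 CPM with LPS (log2 fold change -3.02 ± 0.10, adjusted p = 2.26e-12). The POx-SA libraries stood below the 1165, 1143 and 1217 CPM of untreated cells. Dusp6, a phosphatase of ERK, had 46.1, 21.5 and 20.5 CPM with LPS + POx-SA, against 198, 233 and 162 CPM with LPS (log2 fold change -2.75 ± 0.22, adjusted p = 3.81e-08). Dusp2 fell with a log2 fold change of -1.55 ± 0.12, and Tnfaip3, the ubiquitin-editing enzyme A20, with a log2 fold change of -1.61 ± 0.14. Against these, Inpp5d, the inositol phosphatase SHIP1, had 241, 256 and 206 CPM with LPS + POx-SA, against 144, 159.7 and 129 CPM with LPS (log2 fold change 0.70 ± 0.10, adjusted p = 2.16e-05), at the level of untreated cells (245, 242 and 234 CPM), and Tnfaip2 rose with a log2 fold change of 0.54 ± 0.10.

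AP-1 and EGR factors, the immediate-early transcription factors, had 15 of 25 members lower and 1 higher (median -0.64; 11 and 1 in the 6 libraries alone). Fos had 16.6, 12.8 and 12.0 CPM with LPS + POx-SA, against 59.8, 83.0 and 60.1 CPM with LPS (log2 fold change -2.29 ± 0.15, adjusted p = 3.81e-09). Junb fell with a log2 fold change of -1.63 ± 0.13 and Myc with a log2 fold change of -1.82 ± 0.13. Maff, a small MAF protein that pairs with NRF2, was the member called higher, with 48.9, 28.2 and 48.8 CPM with LPS + POx-SA, against 16.3, 20.1 and 24.9 CPM with LPS (log2 fold change 1.04 ± 0.20, adjusted p = 0.000414). Regulators of cytokine mRNA decay had 6 of 18 higher and 2 lower (median 0.25), with 1 and 1 in the 6 libraries alone, and 10 higher without LPS + POx-SA replicate 1. Rc3h1, which encodes roquin-1, had 348, 685 and 268 CPM with LPS + POx-SA, against 233, 187 and 108 CPM with LPS (log2 fold change 1.30 ± 0.27, adjusted p = 0.000845), with replicate 2 of LPS + POx-SA far above the others. Zfp36, tristetraprolin, which degrades Tnf mRNA, had 1108, 785 and 919 CPM with LPS + POx-SA, against 2420.3, 2410.1 and 2503 CPM with LPS (log2 fold change -1.38 ± 0.11, adjusted p = 2.64e-08) and was near its untreated level of 822, 819 and 835 CPM.

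Effectors of classical activation were lower. Of 26 tested, 20 fell and 1 rose (median -1.24; 17 and 1 in the 6 libraries alone). Ptgs2, the inducible cyclooxygenase COX-2, had 2657, 2094 and 1264 CPM with LPS + POx-SA, against 8709, 8713 and 4320.3 CPM with LPS (log2 fold change -1.85 ± 0.24, adjusted p = 7.02e-06). Replicate 3 had the lowest Ptgs2 in both groups. Nos2 had 416, 708 and 554 CPM with LPS + POx-SA, against 1364, 1163 and 1234 CPM with LPS (log2 fold change -1.16 ± 0.14, adjusted p = 4.2e-06). The complement component C3 fell with a log2 fold change of -2.76 ± 0.16. The exception was Clec4e, which encodes mincle, a receptor of mycobacterial glycolipid, with 299, 540.2 and 523 CPM with LPS + POx-SA, against 209.6, 186 and 232 CPM with LPS (log2 fold change 1.12 ± 0.16, adjusted p = 2.41e-05). Arg1, the arginase of alternative activation, was at or below 0.521 CPM in all 6 libraries and was not called. Of 18 genes of nitric oxide, arginine and polyamine metabolism, 8 fell and 0 rose (median -0.40; 5 and 0 in the 6 libraries alone), among them Arg2 (-0.89 ± 0.13) and the arginine-recycling enzyme Ass1 (-2.11 ± 0.25).

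Eicosanoid enzymes had 8 of 18 lower and 4 higher (median -0.25; 4 and 1 in the 6 libraries alone). Hpgds, the haematopoietic prostaglandin D synthase, had 180.4, 201 and 157 CPM with LPS + POx-SA, against 79.3, 77.2 and 60.0 CPM with LPS (log2 fold change 1.31 ± 0.13, adjusted p = 3.07e-07). By contrast, Alox5, the 5-lipoxygenase of leukotriene synthesis, fell with a log2 fold change of -0.72 ± 0.11 and the phospholipase Pla2g4a, which frees arachidonic acid, with a log2 fold change of -0.64 ± 0.12. Complement genes had 6 of 14 lower and 4 higher (median -0.33; 4 and 1 in the 6 libraries alone, 5 and 1 with the block; 2 higher without LPS replicate 1), with Cfb, factor B of the alternative pathway, at -2.03 ± 0.27. MHC class I presentation genes had 7 of 21 lower and 4 higher (median -0.30, with 4 and 3 in the 6 libraries alone and 12 lower without LPS + POx-SA replicate 3). The peptide transporter Tap1, 1 of those that fell, had 34.5, 44.3 and 48.5 CPM with LPS + POx-SA, against 115, 113 and 122 CPM with LPS (log2 fold change -1.46 ± 0.13, adjusted p = 1.19e-07). H2-Aa, an MHC class II chain, had 0 counts with LPS + POx-SA and 7 over the LPS libraries. Of 8 class II genes tested, 4 fell, and 1 fell in the 6 libraries alone, with the block or without LPS + POx-SA replicate 1.

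**Figure D3:**
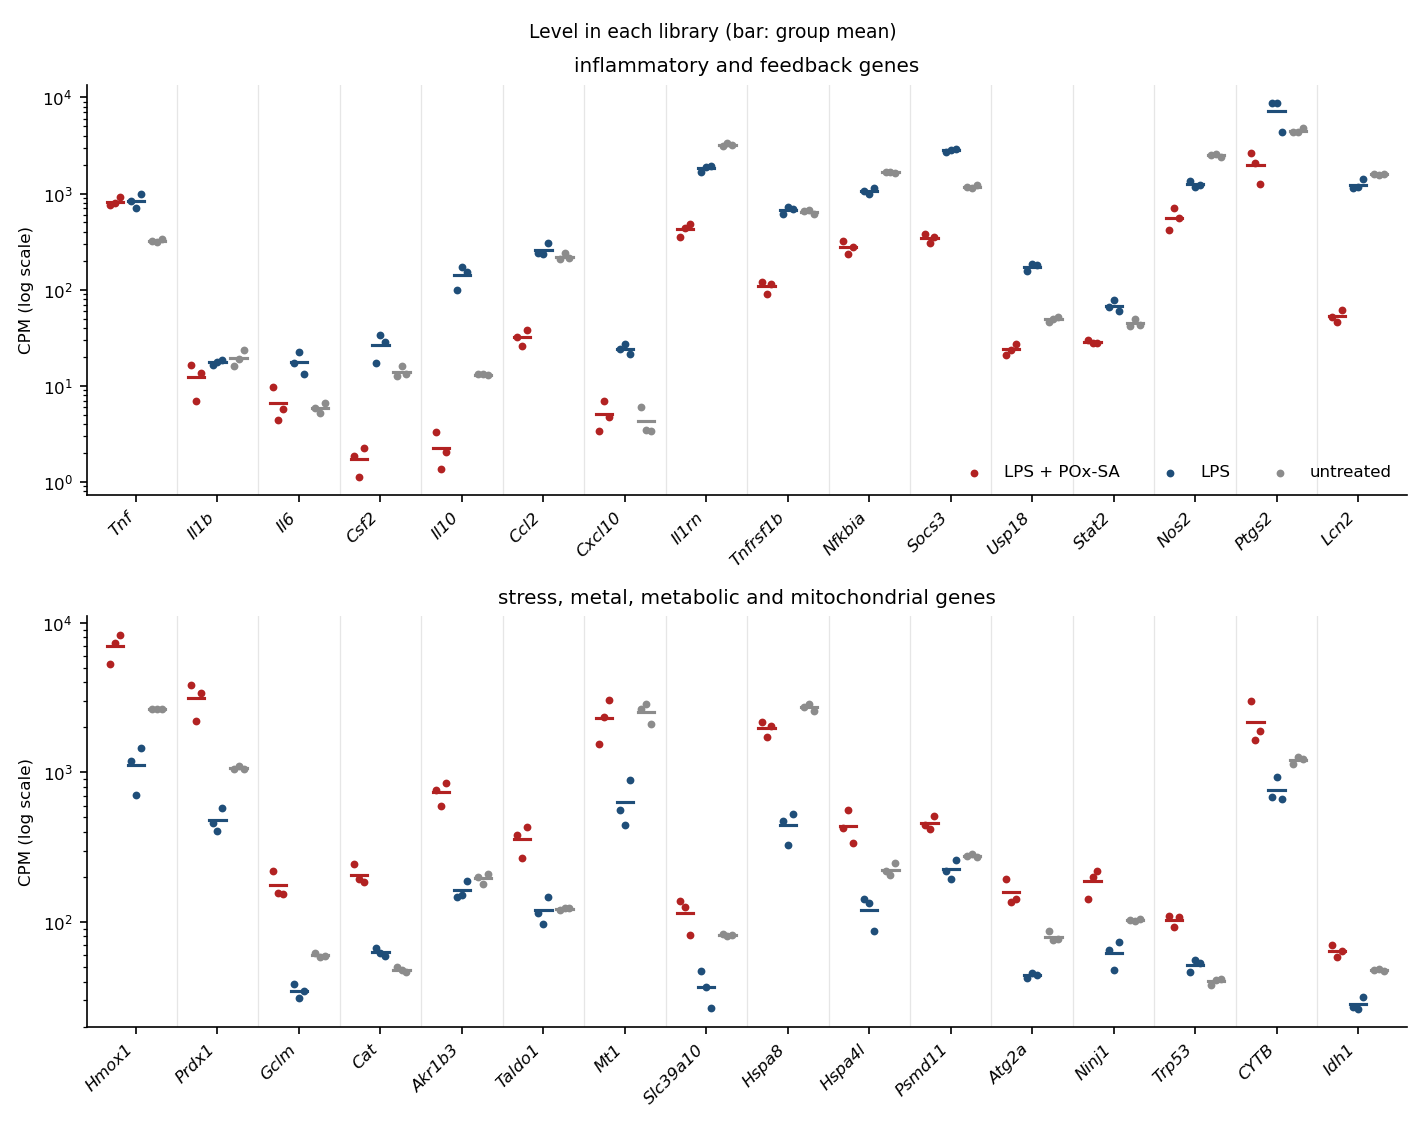
CPM in each library (log scale, y axis) of 16 inflammatory and feedback genes (top) and 16 stress, metal, metabolic and mitochondrial genes (bottom), with LPS + POx-SA (red), LPS (blue) and untreated cells (grey); bars are means of 3 libraries. Tnf libraries of LPS + POx-SA interleave with those of LPS. Il1b libraries of LPS + POx-SA lie below those of LPS, although its change was not called. The other 14 genes at the top are lower with LPS + POx-SA than with LPS, and the 16 genes at the bottom are higher.

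In a joint list of antioxidant genes and targets of the transcription factor NRF2, more genes rose than fell. The activity of NRF2 itself was not tested. Of 39 genes tested, 20 rose, 3 fell and 16 were not called (median 0.37), with 14 and 2 in the 6 libraries alone. Prdx1, a peroxiredoxin that reduces hydrogen peroxide, had 3869, 2209 and 3418 CPM with LPS + POx-SA, against 456, 403 and 578 CPM with LPS (log2 fold change 2.72 ± 0.18, adjusted p = 2.78e-09). Untreated cells held 1062, 1110.0 and 1052 CPM. Gclm, the modifier subunit of the enzyme that limits glutathione synthesis, had 218, 157 and 154 CPM with LPS + POx-SA, against 38.7, 31.0 and 34.3 CPM with LPS (log2 fold change 2.35 ± 0.12, adjusted p = 2.42e-10). Catalase, Cat, had 243, 195 and 184 CPM with LPS + POx-SA, against 67.5, 62.4 and 59.2 CPM with LPS (log2 fold change 1.72 ± 0.10, adjusted p = 9.87e-10). The aldose reductase Akr1b3 had 759, 596 and 851 CPM with LPS + POx-SA, against 147, 152 and 189 CPM with LPS (log2 fold change 2.18 ± 0.13, adjusted p = 1.56e-09). For all 4 the POx-SA libraries stood above every LPS and every untreated library. Sod2, the mitochondrial superoxide dismutase and an NF-kB target, had 117, 119 and 155 CPM with LPS + POx-SA, against 177, 185 and 242 CPM with LPS (log2 fold change -0.63 ± 0.12, adjusted p = 0.000414). Gpx1, glutathione peroxidase 1, fell with a log2 fold change of -0.71 ± 0.13.

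Iron and haem genes moved in both directions. Of 33 tested, 13 rose and 9 fell (median 0.10; 7 and 7 in the 6 libraries alone). Hmox1, haem oxygenase 1, which splits haem into iron, carbon monoxide and biliverdin, had 5278, 7324 and 8298 CPM with LPS + POx-SA, against 1200.0, 711 and 1466 CPM with LPS (log2 fold change 2.63 ± 0.21, adjusted p = 2.66e-08), and 2651, 2671 and 2646 CPM in untreated cells. Blvrb, a biliverdin reductase, had 163, 130.1 and 182 CPM with LPS + POx-SA, against 37.0, 28.2 and 43.3 CPM with LPS (log2 fold change 2.13 ± 0.16, adjusted p = 1.1e-08), and ferroportin is given above. These genes of haem breakdown and iron export rose, while Lcn2 and Slc39a14, an importer of zinc and non-transferrin iron, fell (-1.41 ± 0.13).

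Metallothioneins, small proteins that bind zinc and copper, were higher with LPS + POx-SA than with LPS, towards their untreated level. Mt1 had 1549, 2335 and 3047 CPM with LPS + POx-SA, against 565, 443 and 887 CPM with LPS (log2 fold change 1.87 ± 0.28, adjusted p = 3.88e-05). Untreated cells held 2659, 2868 and 2123 CPM, and Mt2 had 2158, 3140.3 and 3508 CPM with LPS + POx-SA, against 969, 806 and 1258 CPM with LPS (log2 fold change 1.54 ± 0.22, adjusted p = 2.01e-05), with 3939, 4218 and 3327 CPM. Over the list of metallothioneins and zinc transporters 6 of 16 rose and 3 fell (median 0.00; 5 and 1 in the 6 libraries alone). Slc39a10, a zinc importer, had 138, 126 and 81.5 CPM with LPS + POx-SA, against 46.8, 36.9 and 26.6 CPM with LPS (log2 fold change 1.65 ± 0.18, adjusted p = 1.32e-06). Enzymes of the pentose phosphate pathway and NADPH supply had 7 of 13 higher and 3 lower (median 0.22; 5 and 0 in the 6 libraries alone). Taldo1, transaldolase, had 379, 268 and 432 CPM with LPS + POx-SA, against 114, 96.7 and 147 CPM with LPS (log2 fold change 1.59 ± 0.16, adjusted p = 3.44e-07). Pgd, 6-phosphogluconate dehydrogenase, rose with a log2 fold change of 1.08 ± 0.16, and the NADP-dependent enzymes Idh1 and Me1 with a log2 fold change of 1.18 ± 0.09 and 1.16 ± 0.11.

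Cytosolic chaperones rose broadly. Of 32 heat shock genes, 20 rose, 3 fell and 9 were not called (median 0.42; 12 and 2 in the 6 libraries alone). Hspa8, the constitutive HSC70, had 2171, 1717 and 2050.0 CPM with LPS + POx-SA, against 474, 327 and 525 CPM with LPS (log2 fold change 2.16 ± 0.16, adjusted p = 1.32e-08), but 2734, 2860.4 and 2563 CPM in untreated cells. Hspa4l and Hsph1, nucleotide exchange factors of the HSP110 family, had log2 fold changes of 1.86 ± 0.17 and 1.38 ± 0.09. Hsph1 stood at 275, 218 and 266 CPM with LPS + POx-SA, against 96.5, 93.3 and 101 CPM with LPS, and at 143, 150.2 and 135 CPM in untreated cells. Hsf2, a heat shock transcription factor, fell with a log2 fold change of -0.75 ± 0.13, and Hspa14 with a log2 fold change of -1.17 ± 0.15.

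Proteasome subunits, which form the protease of ubiquitin-tagged proteins, had 16 of 33 higher and 0 lower (median 0.38), with 7 and 0 in the 6 libraries alone and 25 higher without LPS replicate 3. Psmd11 had 446, 419.8 and 509 CPM with LPS + POx-SA, against 219, 194 and 262 CPM with LPS (log2 fold change 1.03 ± 0.10, adjusted p = 4.23e-07). Psmd1 had 248, 216 and 257 CPM with LPS + POx-SA, against 143, 139 and 148 CPM with LPS (log2 fold change 0.75 ± 0.09, adjusted p = 4.38e-06). Autophagy genes had 17 of 37 higher and 7 lower (median 0.18; 9 and 3 in the 6 libraries alone). Atg2a, a lipid transfer protein of the growing autophagosome, had 195, 136 and 142 CPM with LPS + POx-SA, against 42.5, 45.9 and 44.3 CPM with LPS (log2 fold change 1.84 ± 0.13, adjusted p = 5.85e-09). The E1-like enzyme Atg7 rose with a log2 fold change of 1.07 ± 0.11, and Nbr1, a cargo receptor, with a log2 fold change of 0.96 ± 0.11. Wipi1, which binds phosphatidylinositol 3-phosphate, had 3.56, 3.10 and 2.75 CPM with LPS + POx-SA, against 15.4, 11.7 and 10.6 CPM with LPS (log2 fold change -2.00 ± 0.17, adjusted p = 5.42e-08). Atg5 fell with a log2 fold change of -0.57 ± 0.09.

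Genes of the endoplasmic reticulum and amino acid stress responses were split, with 9 of 34 higher and 9 lower (median -0.01; 4 and 3 in the 6 libraries alone). Atf4, the central factor of the amino acid response, had 529, 604 and 699 CPM with LPS + POx-SA, against 269, 302 and 319 CPM with LPS (log2 fold change 1.04 ± 0.11, adjusted p = 4.59e-07). Its target Psat1, an enzyme of serine synthesis, rose with a log2 fold change of 0.72 ± 0.09. Herpud1 and Sel1l, parts of the machinery that removes misfolded proteins from the endoplasmic reticulum, fell with a log2 fold change of -1.67 ± 0.10 and -0.93 ± 0.14. Edem1, which directs glycoproteins to that machinery, rose with a log2 fold change of 0.95 ± 0.13. Herpud1 had 146, 168 and 156 CPM with LPS + POx-SA, against 474, 544 and 479.8 CPM with LPS, and 81.2, 70.7 and 76.5 CPM in untreated cells. Amino acid transporters had 9 of 19 higher and 5 lower (median 0.32; 5 and 4 in the 6 libraries alone). Slc6a9, a glycine transporter, had 66.1, 52.5 and 66.1 CPM with LPS + POx-SA, against 28.3, 34.7 and 31.9 CPM with LPS (log2 fold change 0.96 ± 0.13, adjusted p = 1.13e-05). By contrast, Slc7a5 and Slc7a8, light chains of large neutral amino acid exchangers, fell with a log2 fold change of -1.30 ± 0.11 and -2.06 ± 0.11. Aminoacyl-tRNA synthetases had 7 of 21 higher and 1 lower (median 0.14), with 1 and 0 in the 6 libraries alone and 4 and 4 without LPS + POx-SA replicate 3.

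Glycolysis and hypoxia genes leaned lower. Of 35 tested, 15 fell and 4 rose (median -0.30; 11 and 2 in the 6 libraries alone; 10 higher without LPS replicate 3). Slc2a1, the glucose transporter GLUT1, had 507, 642 and 613 CPM with LPS + POx-SA, against 1967, 1539 and 1986 CPM with LPS (log2 fold change -1.64 ± 0.12, adjusted p = 7.12e-09). Pfkfb3, which makes the activator of phosphofructokinase, had 195, 263 and 211 CPM with LPS + POx-SA, against 790.3, 948 and 717 CPM with LPS (log2 fold change -1.87 ± 0.12, adjusted p = 1.55e-09). Bnip3, a mitophagy receptor induced by HIF-1, fell to 73.8, 88.0 and 86.0 CPM with LPS + POx-SA, against 173, 146 and 176 CPM with LPS (adjusted p = 3.88e-07). Its relative Bnip3l rose with a log2 fold change of 0.46 ± 0.10. Hk3, a hexokinase of myeloid cells, had 366, 378 and 420.4 CPM with LPS + POx-SA, against 146, 156 and 181 CPM with LPS (log2 fold change 1.27 ± 0.10, adjusted p = 1.55e-08). TCA cycle and itaconate genes had 8 of 29 higher and 6 lower (median 0.06; 4 and 2 in the 6 libraries alone), with Ogdh, a subunit of the oxoglutarate dehydrogenase complex, at 0.64 ± 0.08 and Me2, a mitochondrial malic enzyme, at -0.81 ± 0.11.

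Lipid genes had no common direction. Cholesterol synthesis and uptake had 6 of 27 higher and 8 lower (median -0.12; 4 and 3 in the 6 libraries alone). Fatty acid genes had 6 of 22 higher and 8 lower (median -0.20), but 0 and 6 in the 6 libraries alone and 3 and 7 with the block, and 3 higher without LPS replicate 2. Dgat2, which makes triglyceride, had 0.742, 1.36 and 0.776 CPM with LPS + POx-SA, against 10.6, 11.0 and 8.51 CPM with LPS (log2 fold change -3.38 ± 0.29, adjusted p = 7.74e-08). Plin2, the coat protein of lipid droplets, had 559.8, 312 and 602 CPM with LPS + POx-SA, against 1076, 1255 and 1667 CPM with LPS (log2 fold change -1.44 ± 0.19, adjusted p = 9.27e-06). Untreated cells held 356, 375 and 365 CPM. LXR targets had 4 of 16 higher and 6 lower (median -0.15; 3 and 4 in the 6 libraries alone). Lipa, the lysosomal acid lipase, had 295, 373 and 338 CPM with LPS + POx-SA, against 171, 153 and 147 CPM with LPS (log2 fold change 1.10 ± 0.09, adjusted p = 7.17e-08). Lysosomal genes had 15 of 52 higher and 10 lower (median 0.03; 5 and 7 in the 6 libraries alone, 12 and 19 with plain library totals, 11 and 18 on log2(FPKM + 1)), with the cathepsins Ctsc at -1.27 ± 0.09 and Ctsh at -2.84 ± 0.28.

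Mitochondrially encoded transcripts, the subunits of the respiratory chain made inside the organelle, had 10 of 13 members higher and 0 lower (median 1.06; 8 and 0 in the 6 libraries alone). CYTB, cytochrome b of complex III, had 2989, 1644 and 1906 CPM with LPS + POx-SA, against 683, 931 and 666 CPM with LPS (log2 fold change 1.52 ± 0.18, adjusted p = 2.74e-06). ND1 and ND2, subunits of complex I, rose with a log2 fold change of 1.34 ± 0.17 and 1.33 ± 0.15, and ND4, another of its subunits, with a log2 fold change of 1.44 ± 0.16. Replicate 1 of LPS + POx-SA was the highest library for each of these 4. Untreated levels were 1136, 1273 and 1238 CPM for CYTB and 305, 342 and 332 CPM for ND1.

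Counts for nuclear genes of the respiratory chain and the ribosome depended on single libraries. Nuclear respiratory subunits had 11 of 47 higher and 0 lower (median 0.23), 3 and 0 in the 6 libraries alone, and from 8 higher without LPS + POx-SA replicate 3 to 27 without LPS replicate 3. Ndufs8, a complex I subunit, had 103, 113 and 174 CPM with LPS + POx-SA, against 57.8, 46.1 and 86.8 CPM with LPS (log2 fold change 1.03 ± 0.20, adjusted p = 0.000403). Cytosolic ribosomal protein genes had 17 of 76 higher and 0 lower (median 0.30), close to the 22.2% of all genes, with 2 and 0 in the 6 libraries alone. That count was 7 without LPS replicate 2 and 51 without LPS replicate 3, and 32 without replicate 3 of both groups, where 24.4% of all genes tested were called higher. Their summed level was 37218, 44668 and 54887 CPM with LPS + POx-SA, against 37256, 31646 and 48153 CPM with LPS, scaled to plain library totals, and replicate 3 was the highest in each group. Ribosomal proteins have many processed pseudogenes and are short, so these values are uncertain. Mitochondrial ribosomal proteins had 10 of 55 higher and 4 lower (median 0.09; 3 and 1 in the 6 libraries alone; 20 higher without LPS replicate 3 and 10 lower without LPS + POx-SA replicate 3), and ribosome biogenesis genes 10 of 45 higher and 13 lower (median -0.05; 0 and 6 in the 6 libraries alone; 4 higher without LPS replicate 1). Nop58, a core protein of box C/D snoRNPs, had 83.7, 81.0 and 87.8 CPM with LPS + POx-SA, against 228, 271 and 249 CPM with LPS (log2 fold change -1.57 ± 0.10, adjusted p = 3.01e-09).

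Genes of mitosis and of DNA replication leaned lower with LPS + POx-SA, unlike the histone and G1 lists given below. Of 48 mitosis and spindle genes, 30 fell and 5 rose (median -0.60; 19 and 1 in the 6 libraries alone, 26 and 4 with the block; 3 higher without LPS replicate 2). Ccna2, cyclin A2, had 9.87, 16.3 and 16.1 CPM with LPS + POx-SA, against 50.1, 44.8 and 51.7 CPM with LPS (log2 fold change -1.79 ± 0.15, adjusted p = 4.84e-08). The kinesin Kif2c had 3.64, 4.76 and 4.51 CPM with LPS + POx-SA, against 15.3, 14.9 and 15.4 CPM with LPS (log2 fold change -1.82 ± 0.13, adjusted p = 5.58e-09). Untreated cells held 7.89, 10.7 and 8.38 CPM of Ccna2 and 1.63, 1.05 and 1.90 CPM of Kif2c, so the POx-SA libraries stood between LPS and untreated cells for Kif2c and overlapped the untreated range for Ccna2. Of 45 S phase and replication genes, 23 fell and 4 rose (median -0.44; 11 and 1 in the 6 libraries alone, 22 and 2 with the block; 2 higher without LPS + POx-SA replicate 2). Mcm10, which helps to start replication forks, had 12.4, 16.6 and 15.8 CPM with LPS + POx-SA, against 32.7, 40.3 and 35.4 CPM with LPS (log2 fold change -1.28 ± 0.12, adjusted p = 2.89e-07). Rrm2, a subunit of ribonucleotide reductase, fell with a log2 fold change of -0.73 ± 0.10. Gins3, a subunit of the replicative helicase, rose with a log2 fold change of 1.09 ± 0.11, and Cdc25b, a phosphatase that activates CDK1, with a log2 fold change of 1.11 ± 0.12. In bulk RNA, fewer cells in a state and less RNA per cell cannot be told apart.

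Replication-dependent histones had 11 of 32 higher and 2 lower (median 1.02; 6 and 0 in the 6 libraries alone; 7 higher without LPS replicate 2). H2bc4 had 74.5, 84.7 and 87.1 CPM with LPS + POx-SA, against 42.8, 17.2 and 45.2 CPM with LPS (log2 fold change 1.23 ± 0.23, adjusted p = 0.000358), far under the 515, 522 and 498 CPM of untreated cells. The summed level of these histones was 200 to 310 CPM with LPS + POx-SA, 150 to 228 CPM with LPS and 1914 to 2075 CPM in untreated cells, and histone genes have close copies. G1 regulators and p53 targets had 11 of 29 higher and 8 lower (median 0.22; 7 and 4 in the 6 libraries alone). Trp53 had 109.7, 92.6 and 108 CPM with LPS + POx-SA, against 46.4, 55.5 and 52.9 CPM with LPS (log2 fold change 1.00 ± 0.10, adjusted p = 3.46e-07). Its target Bbc3, the pro-apoptotic protein PUMA, had 85.8, 115 and 118 CPM with LPS + POx-SA, against 37.5, 31.9 and 37.3 CPM with LPS (log2 fold change 1.58 ± 0.14, adjusted p = 8.72e-08). Ccnd3, cyclin D3, had 33.9, 36.4 and 34.4 CPM with LPS + POx-SA, against 111, 88.6 and 108 CPM with LPS (log2 fold change -1.56 ± 0.10, adjusted p = 3.81e-09). Gadd45a, another p53 target, fell with a log2 fold change of -1.74 ± 0.16. BCL2 family and cell death genes had 8 of 24 higher and 8 lower (median 0.09; 3 and 4 in the 6 libraries alone), with Casp6, an executioner caspase, at -2.18 ± 0.17 and Bmf, a BH3-only protein, at -1.98 ± 0.22.

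Inflammasome and pyroptosis genes had 8 of 21 higher and 5 lower (median -0.03; 7 and 3 in the 6 libraries alone). Ninj1, which ruptures the plasma membrane of dying cells, had 142, 200.5 and 219 CPM with LPS + POx-SA, against 64.8, 48.0 and 73.6 CPM with LPS (log2 fold change 1.59 ± 0.17, adjusted p = 7.38e-07). P2rx7, the ATP-gated channel upstream of NLRP3, had 863, 806 and 789 CPM with LPS + POx-SA, against 487, 483 and 457 CPM with LPS (log2 fold change 0.78 ± 0.08, adjusted p = 1.01e-06). Casp4 (caspase-11), the cytosolic receptor of LPS, had 30.2, 30.5 and 35.7 CPM with LPS + POx-SA, against 108, 122 and 137 CPM with LPS (log2 fold change -1.92 ± 0.11, adjusted p = 9.87e-10). Txnip, which binds thioredoxin, had 629, 869 and 808 CPM with LPS + POx-SA, against 3445, 2387 and 3356 CPM with LPS (log2 fold change -1.99 ± 0.14, adjusted p = 6.14e-09). The receptor of intracellular LPS thus fell while the membrane rupture gene rose.

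At the cell surface, Siglec genes did not share a direction. Of 18 Siglecs, signalling partners and inhibitory phosphatases, 3 rose, 6 fell and 9 were not called (median -0.06; 2 and 2 in the 6 libraries alone, 2 and 3 with the block; 3 lower without LPS + POx-SA replicate 2). Siglec1, sialoadhesin, an interferon-induced receptor without an inhibitory motif, had 46.3, 51.3 and 37.9 CPM with LPS + POx-SA, against 175, 154 and 119 CPM with LPS (log2 fold change -1.73 ± 0.14, adjusted p = 2.45e-08), at its untreated level of 48.5, 53.2 and 41.4 CPM. Cd33 rose as given above. Siglece, the main inhibitory Siglec of mouse myeloid cells, had 1.56, 0.907 and 1.76 CPM with LPS + POx-SA, against 1.42, 2.35 and 3.59 CPM with LPS, with overlapping groups, and its call as lower (-0.79 ± 0.29) was lost in 7 of 17 alternatives, the 6 libraries alone among them (adjusted p = 0.235). Ptpn11 (SHP-2) had 99.9, 112 and 99.3 CPM with LPS + POx-SA, against 162, 170.1 and 140.3 CPM with LPS (log2 fold change -0.60 ± 0.09, adjusted p = 4.91e-05), and Ptpn6 (SHP-1) was called lower with a log2 fold change of -0.31 ± 0.12 with an adjusted p of 0.0497 and overlapping libraries, a call lost in 8 of 17 alternatives.

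Sialyltransferases, which add sialic acid to glycans, had 2 of 12 higher and 4 lower (median 0.05; 2 and 3 in the 6 libraries alone, 3 and 4 with the block). St3gal1, which caps core 1 O-glycans, had 50.6, 51.1 and 51.0 CPM with LPS + POx-SA, against 137, 129 and 129 CPM with LPS (log2 fold change -1.37 ± 0.09, adjusted p = 2.2e-09). St3gal4 had 17.4, 17.5 and 21.5 CPM with LPS + POx-SA, against 44.2, 37.4 and 55.5 CPM with LPS (log2 fold change -1.28 ± 0.14, adjusted p = 8.11e-07). St8sia4, a polysialyltransferase, had 169, 301 and 124 CPM with LPS + POx-SA, against 97.9, 76.7 and 51.2 CPM with LPS (log2 fold change 1.39 ± 0.24, adjusted p = 0.000164), with replicate 2 of LPS + POx-SA the highest, and St6galnac6 rose with a log2 fold change of 0.72 ± 0.12. Of 18 genes of sialic acid synthesis, transport and cleavage, 1 rose and 2 fell, with 0 and 0 in the 6 libraries alone and 4 and 4 without LPS + POx-SA replicate 3.

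Fc receptors and their kinases had 7 of 15 lower and 4 higher (median -0.53; 6 and 2 in the 6 libraries alone, 7 and 2 with the block). Fcgr1, the high-affinity IgG receptor, had 18.9, 15.0 and 27.9 CPM with LPS + POx-SA, against 74.0, 87.1 and 115 CPM with LPS (log2 fold change -2.16 ± 0.18, adjusted p = 5.66e-08). The Src family kinases Lyn and Fgr fell with a log2 fold change of -1.06 ± 0.08 and -1.91 ± 0.16. Btk, Bruton's tyrosine kinase, rose with a log2 fold change of 0.62 ± 0.10. C-type lectin receptors had 4 of 18 higher and 4 lower (median 0.11, with 3 and 3 in the 6 libraries alone), close to the 22.2% and 24.1% of all genes. Clec4d, the partner of mincle, had 428, 453 and 634 CPM with LPS + POx-SA, against 176, 168 and 247 CPM with LPS (log2 fold change 1.36 ± 0.15, adjusted p = 1.55e-06) and rose with Clec4e and Clec4n, while Clec5a fell with a log2 fold change of -0.95 ± 0.14. Clec4d, Clec4e and Clec4n belong to the dectin-2 family, and their reads may be shared among related genes.

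Subunits of the phagocyte NADPH oxidase, which makes superoxide, had 3 of 8 higher and 1 lower (median 0.08; 2 and 0 in the 6 libraries alone). Ncf1 (p47phox) had 316 ± 57.9 CPM with LPS + POx-SA, against 86.5 ± 11.9 CPM with LPS (log2 fold change 1.87 ± 0.12, adjusted p = 3.05e-09). Scavenger and apoptotic cell receptors had 6 of 17 higher and 3 lower (median 0.20; 2 and 2 in the 6 libraries alone; 3 higher without LPS replicate 1), with Tyro3, a receptor tyrosine kinase of the TAM family, at -3.25 ± 0.41. Adhesion and cytoskeletal genes had 17 of 35 lower and 7 higher (median -0.22; 11 and 3 in the 6 libraries alone, 16 and 4 with the block). Itga6, integrin alpha 6, had 9.13, 8.84 and 5.29 CPM with LPS + POx-SA, against 66.0, 62.1 and 35.5 CPM with LPS (log2 fold change -2.82 ± 0.25, adjusted p = 8.65e-08). The focal adhesion protein Pxn fell with a log2 fold change of -1.14 ± 0.08, and vimentin, Vim, with a log2 fold change of -1.16 ± 0.12. Itgb2, the beta 2 integrin chain, rose with a log2 fold change of 0.48 ± 0.09, whereas its partner Itgam fell with a log2 fold change of -0.75 ± 0.10.

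Growth factor receptors and myeloid factors had 11 of 22 lower and 3 higher (median -0.44; 8 and 3 in the 6 libraries alone). Csf1r, the receptor of macrophage colony-stimulating factor, had 448, 542 and 508 CPM with LPS + POx-SA, against 280.3, 281 and 272 CPM with LPS (log2 fold change 0.85 ± 0.09, adjusted p = 5.85e-07). Csf2ra, the alpha chain of the GM-CSF receptor, rose with a log2 fold change of 0.90 ± 0.14. The shared beta chain Csf2rb fell with a log2 fold change of -1.26 ± 0.17 and Csf3r, the G-CSF receptor, with a log2 fold change of -1.58 ± 0.19. Alternative activation markers had 4 of 12 lower and 1 higher (median -0.51; 3 and 1 in the 6 libraries alone), Klf4 among those that fell (-1.21 ± 0.18). Osteoclast genes, of interest because RAW264.7 cells can form osteoclasts, had 5 of 17 higher and 3 lower (median 0.07; 3 and 2 in the 6 libraries alone). Dcstamp, a protein of cell fusion, had 29.8, 13.0 and 16.7 CPM with LPS + POx-SA, against 8.01, 10.3 and 7.51 CPM with LPS (log2 fold change 1.20 ± 0.22, adjusted p = 0.00026). Tcirg1, a subunit of the proton pump, rose with a log2 fold change of 0.99 ± 0.13.

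**Figure D4:**
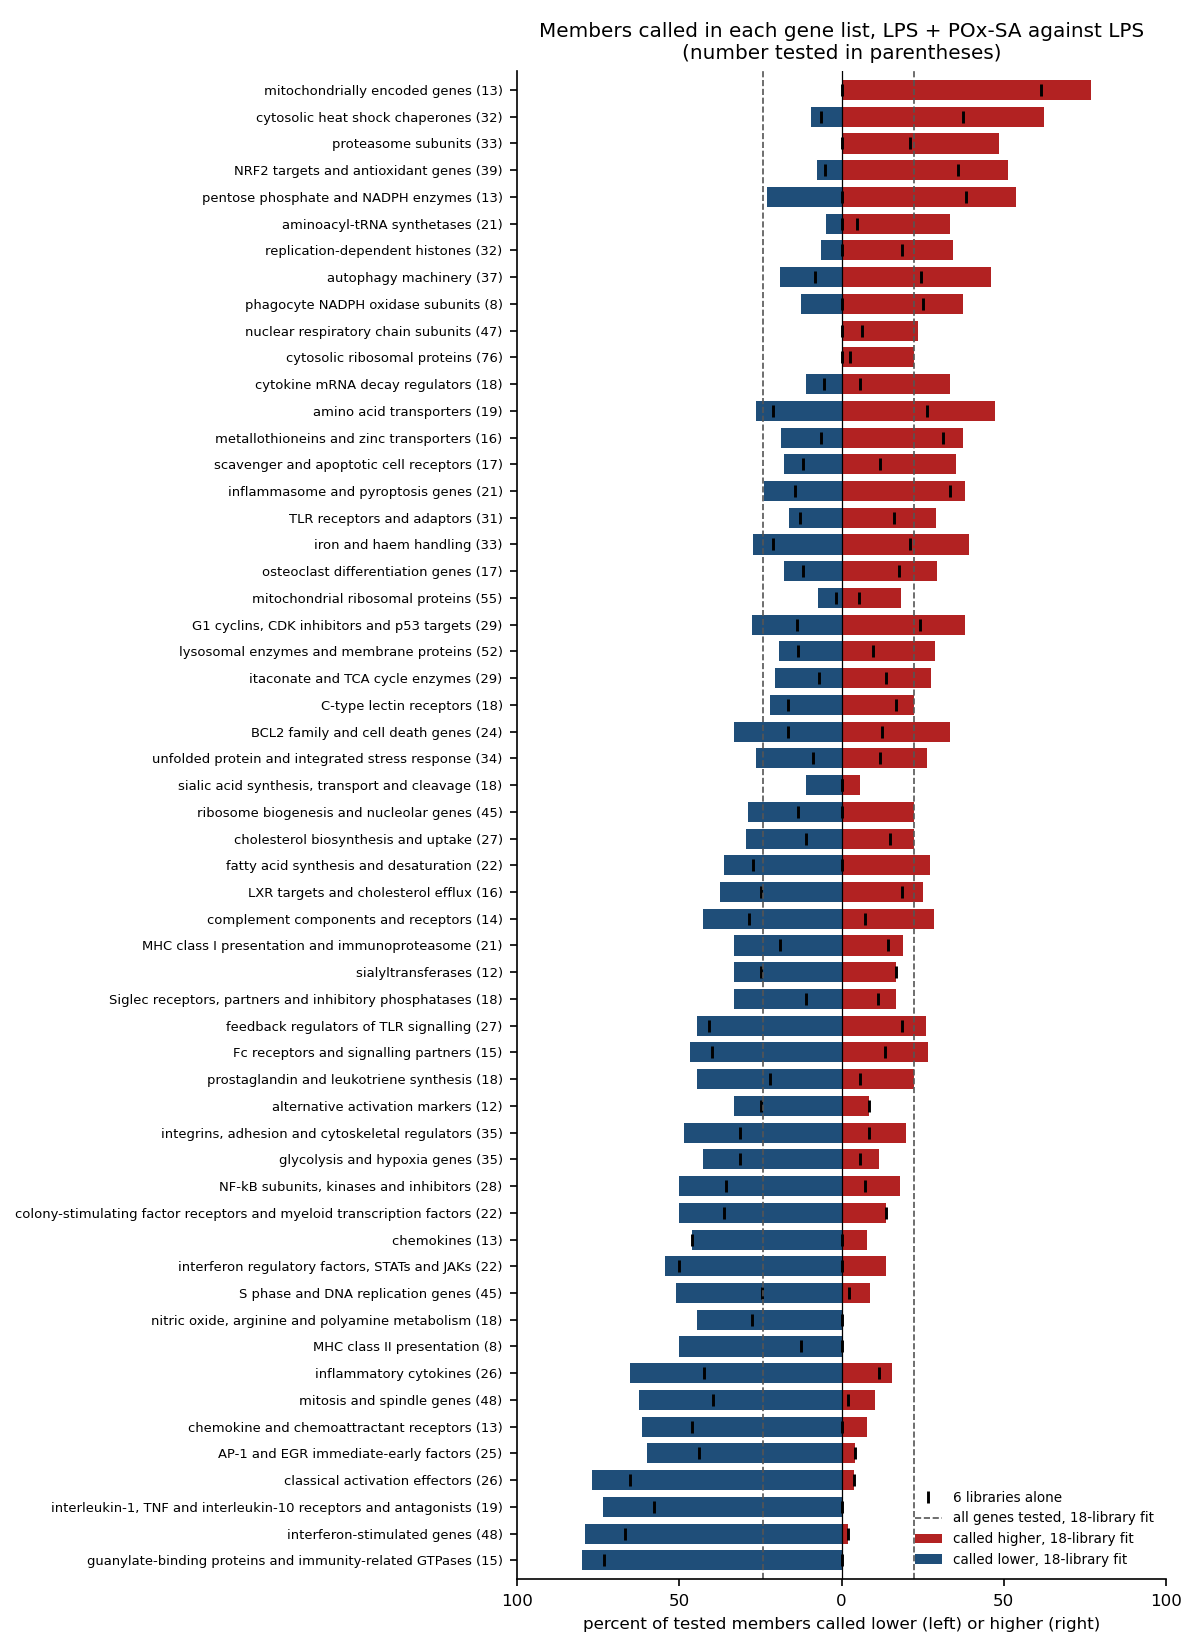
Percent of the tested members of each gene list that were called lower (blue, left) or higher (red, right) with LPS + POx-SA against LPS in the 18-library fit. Dashed lines mark the 24.1% and 22.2% of all genes tested in that fit. Ticks give calls of the 6 libraries alone as a percent of the same members. The 6-library fit called 13.9% of its genes lower and 10.8% higher, which the dashed lines do not show. Guanylate-binding proteins, interferon-stimulated genes, classical activation effectors and cytokine receptors extend farthest to the left, and mitochondrially encoded and heat shock genes farthest to the right.

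Markers of other cell types were low in the libraries compared. The summed level of 13 lymphocyte markers was 0.745 to 1.75 CPM with LPS + POx-SA and 0.677 to 1.69 CPM with LPS, and that of 13 epithelial and endothelial markers was 2.64 to 4.55 CPM and 2.71 to 3.13 CPM in the same order of groups. Fibroblast markers summed to 3.32 to 7.45 CPM with LPS + POx-SA, against 5.82 to 6.23 CPM with LPS, and of 3 tested Acta2 rose (2.58 ± 0.49) and Dcn and Lum fell. Neutrophil and mast cell markers summed to 32.6 to 64.2 CPM with LPS + POx-SA, 156 to 240 CPM with LPS and 1951 to 2155 CPM in untreated cells. S100a8, a calprotectin subunit and 1 of these markers, had 62.4, 35.6 and 60.6 CPM with LPS + POx-SA, against 172, 148 and 252 CPM with LPS (log2 fold change -1.85 ± 0.24, adjusted p = 1.28e-05). Of the 15 markers found in the count table, 8, Ly6g, Elane and Kit among them, had 0 counts in the 6 libraries compared. Dendritic cell markers summed to 93.0 to 139 CPM with LPS + POx-SA, against 111 to 183 CPM with LPS, and 1 of 4 tested fell, but 0 without LPS + POx-SA replicate 1 and 2 without LPS + POx-SA replicate 3. Of the 23 macrophage markers 6 fell and 4 rose (5 and 1 in the 6 libraries alone). Of 9 genes that mark handling stress, 6 fell and 3 rose, the same in the 6 libraries alone. Dnajb1 had 101, 51.4 and 93.7 CPM with LPS + POx-SA, against 22.9, 25.3 and 30.3 CPM with LPS (log2 fold change 1.65 ± 0.19, adjusted p = 2.01e-06) and rose with the Hspa1 genes, while Fos fell as given above and Ier2, another immediate-early gene, with a log2 fold change of -2.32 ± 0.30. The part of handling in the heat shock genes was not tested.

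The responses to POx-SA and to the PPLG polymers were compared directly between libraries that had LPS and a polymer, for 14 genes. Doses and times are not stated, so whether they match is unknown. These comparisons share the pooled spread of all groups and were not refitted to the compared groups alone. Against LPS + PPLG-SA 57.7% of all genes tested were called, against LPS + PPLG-2V-SA 64.0%, against LPS + PPLG-4V-SA 57.9%, and against untreated cells 58.3%. Il10 stood at 3.34, 1.36 and 2.04 CPM with LPS + POx-SA, and at 22.8, 23.9 and 25.5 CPM with LPS + PPLG-SA (difference -3.41 ± 0.23, adjusted p = 1.77e-09). It was 5.48, 4.66 and 5.44 CPM with LPS + PPLG-2V-SA (difference -1.21 ± 0.25, adjusted p = 0.000425) and 40.4, 36.0 and 35.7 CPM with LPS + PPLG-4V-SA (difference -4.05 ± 0.23, adjusted p = 1.99e-10). The POx-SA libraries thus had the lowest Il10 of all groups.

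Il1b was 16.3, 7.03 and 13.6 CPM with LPS + POx-SA, against 134, 145 and 149 CPM with LPS + PPLG-SA (difference -3.53 ± 0.22, adjusted p = 6.77e-10). With LPS + PPLG-4V-SA it was 169, 130.2 and 155 CPM (difference -3.61 ± 0.22, adjusted p = 4.86e-10), and with LPS + PPLG-2V-SA 33.6, 26.5 and 25.1 CPM (difference -1.20 ± 0.21, adjusted p = 9.68e-05). Il6 was 9.73, 4.38 and 5.71 CPM with LPS + POx-SA, against 45.8, 46.4 and 46.6 CPM with LPS + PPLG-SA and 67.4, 57.4 and 59.1 CPM with LPS + PPLG-4V-SA (differences -2.81 ± 0.23 and -3.21 ± 0.23, adjusted p = 2.14e-08 and 4e-09). Between LPS + POx-SA and LPS + PPLG-2V-SA no difference in Il6 was called (-0.32 ± 0.24, 95% interval -0.83 to 0.18, adjusted p = 0.248), although 3 of 11 alternatives called one.

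Tnf and Siglece set POx-SA apart from the PPLG polymers. Tnf was 752, 790.0 and 928 CPM with LPS + POx-SA, against 307, 294 and 306 CPM with LPS + PPLG-SA, 517, 451 and 509.8 CPM with LPS + PPLG-2V-SA and 414, 371 and 382 CPM with LPS + PPLG-4V-SA. The differences were 1.44 ± 0.12, 0.74 ± 0.11 and 1.08 ± 0.12, with adjusted p = 1.46e-08, 2.29e-05 and 4.4e-07. Siglece was 1.56, 0.907 and 1.76 CPM with LPS + POx-SA, against 10.3, 11.6 and 13.3 CPM, 36.2, 33.1 and 32.9 CPM and 15.6, 17.6 and 18.3 CPM with the PPLG polymers in the same order. These differences were -3.05 ± 0.25, -4.58 ± 0.25 and -3.59 ± 0.25 (adjusted p = 2.08e-08, 6.82e-11 and 2.08e-09).

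Among the largest rises, Ptpn14, Adcy3 and the HSP70 genes were higher with POx-SA than with any PPLG polymer. Ptpn14 was 113, 91.3 and 94.4 CPM with LPS + POx-SA and at most 1.03 CPM in any PPLG library, and differed by 6.98 ± 0.25, 7.30 ± 0.25 and 7.17 ± 0.25 from LPS + PPLG-SA, LPS + PPLG-2V-SA and LPS + PPLG-4V-SA (adjusted p = 9.6e-13, 3.74e-13 and 5.92e-13). Hspa1b was 659, 233 and 343 CPM with LPS + POx-SA, against 21.8, 22.9 and 22.4 CPM with LPS + PPLG-2V-SA (4.20 ± 0.39) and at most 4.40 CPM in the other PPLG libraries. Against untreated cells Hspa1b differed by 0.81 ± 0.34 (adjusted p = 0.0498), a call lost in 5 of 11 alternatives. Slc40a1 stood above its LPS level in every polymer group. It was 20.5, 18.6 and 23.5 CPM with LPS + POx-SA and 18.5, 16.5 and 20.4 CPM with LPS + PPLG-2V-SA, a difference that was not called (0.18 ± 0.19, 95% interval -0.22 to 0.57). It was lower with LPS + PPLG-SA, at 10.6, 10.2 and 11.6 CPM (0.95 ± 0.19, adjusted p = 0.000451), and with LPS + PPLG-4V-SA, at 11.1, 8.53 and 9.03 CPM (1.13 ± 0.19, adjusted p = 8.77e-05). The largest falls Steap4, Ccno, Csn1s1 and Gcnt2 were near 0 with every polymer, at no more than 0.279 CPM in any PPLG library.

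**Figure D5:**
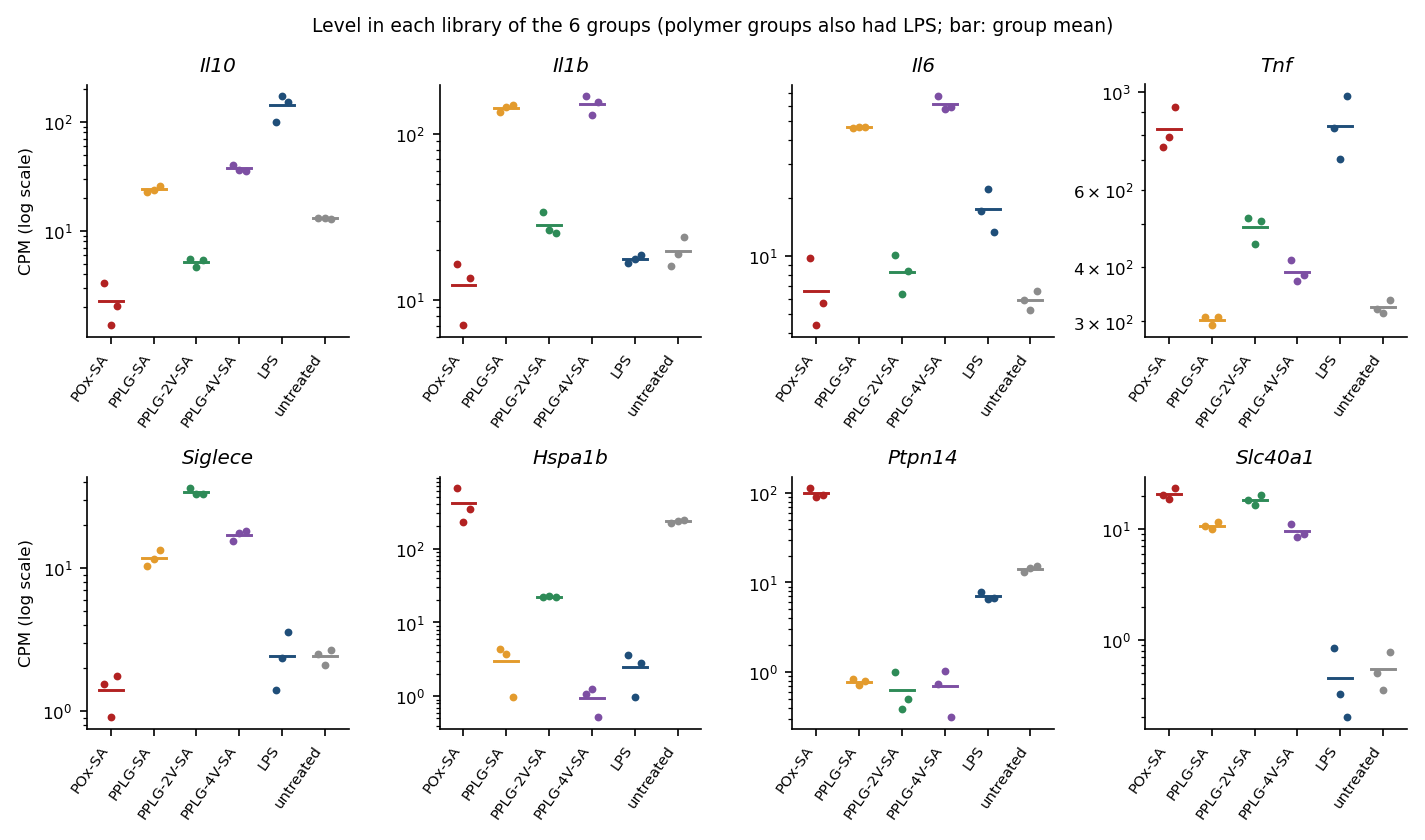
CPM in each library (log scale, y axis) of 8 genes in the 6 groups (x axis; the 4 polymer groups also had LPS), with bars at means of 3 libraries. Il10 and Siglece are lowest and Tnf, Hspa1b and Ptpn14 highest among polymers with LPS + POx-SA, Il1b and Il6 are higher with PPLG-SA and PPLG-4V-SA, and Slc40a1 is near its level with PPLG-2V-SA.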

How the data were processed

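The authors deposited a table of raw read counts for 35510 genes and a table of FPKM values for 22384 genes, each with a column for all 18 libraries. Per the submitters' processing notes the build was GRCm39 and CASAVA was used; aligner, counter, annotation and strand: not given in the sources used here. No deposited column belonged to no sample (0 columns). Counts were fitted with edgeR 4.0.16 in R 4.3.3 by a quasi-likelihood F test over all 18 libraries with 1 term per group, after filterByExpr (minimum count 10, minimum total 15) and TMM scaling, with Benjamini-Hochberg adjustment over 13482 genes and calls at 0.05. The fit had 12 residual degrees of freedom. SE was taken as log2 fold change over the root of F. CPM of single genes are scaled by TMM, and summed CPM of lists by plain library totals. The tested genes held 99.9% of all counts. Counting intervals are exact at 95% and cover counting error only.

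The script was tested on simulated data. Alternatives (17) used DESeq2 1.42.0, limma 3.58.1 on log2(FPKM + 1) or log2(FPKM + 0.1), other scalings and filters, the 6 libraries alone, a replicate block, and left-out libraries. Named genes were the 12 largest rises and 12 largest falls, a panel of 24 genes, and from each of 63 lists the called members with the smallest p (4 at most) and up to 2 against the majority, 289 genes in all. Genes and lists were chosen with earlier results of these data known. The labels do not say that replicate numbers mark a shared batch. The deviations of same-numbered libraries from their group means correlated at 0.276, 0.301 and 0.908 over 10055 genes. Replicates 1 and 2 correlated better across numbers (0.695 and 0.641). The main fit did not pair the libraries, and the replicate block was used only as an alternative. Gene lengths were taken from the ratio of counts to FPKM. Some genes met by the rule for named genes are not reported here.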

Additional observations from a re-analysis of the deposited data

Results flagged for a closer look

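Among the 14 genes compared directly, the change with LPS + POx-SA differed from that with each PPLG polymer for Hspa1a and for 7 others. This was the test of the difference itself, which equals the direct comparison since both changes share the LPS libraries. Over all genes tested, 57.7%, 64.0% and 57.9% were called against LPS + PPLG-SA, LPS + PPLG-2V-SA and LPS + PPLG-4V-SA. The share called against every PPLG polymer at once was not computed. The 14 genes were picked for their large changes against LPS or by name, so their count is not a sample of all genes. On the log2 scale, as POx-SA less PPLG-SA, less PPLG-2V-SA and less PPLG-4V-SA, Hspa1b differed by 7.11, 4.20 and 8.77, Ptpn14 by 6.98, 7.30 and 7.17, and Adcy3 by 5.06, 4.89 and 4.00. Il10 differed in the same order by -3.41, -1.21 and -4.05 and Il1b by -3.53, -1.20 and -3.61. Siglece differed by -3.05, -4.58 and -3.59, and Tnf by 1.44, 0.74 and 1.08. All 21 differences of these 7 genes were called in each of 11 alternatives, and the polymers' doses and times are not stated. Each of these alternatives still pooled the spread over all groups, and none was fitted to the compared groups alone. They therefore do not test how the calls depend on the less variable PPLG libraries. Hspa1a, with 2 counts over the LPS + PPLG-SA libraries and 0 over the LPS + PPLG-4V-SA libraries, also differed from each polymer, by 7.84, 6.33 and 10.5 in the same order.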

How the results depend on the processing

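With the 6 libraries alone, 1335 genes were called higher and 1726 lower, against 2992 and 3247 in the fit to all 18, which shares its spread with less variable groups. With the replicate block the counts were 3081 and 3349 over 18 libraries, and 2601 and 2742 over the 6 libraries. On log2(FPKM + 1) they were 2232 and 3934, on log2(FPKM + 0.1) 2203 and 3888, and with plain library totals 2472 and 3816, where the median of all genes shifted by -0.066, -0.107 and -0.085. Leaving out 1 library gave 2629 to 3230 higher and 2950 to 3295 lower. Of 289 named genes, 280 were called, 238 of them also in the 6 libraries alone, 267 in the 6 libraries with the block and 237 in every alternative that gave them a value (235 of them in all 17), and none reversed. On log2(FPKM + 1), several list counts moved by more than 1.5 times. The falls were 18 in place of 10 for lysosomal genes, 13 in place of 8 for nitric oxide and arginine metabolism, 10 in place of 6 for TCA cycle and itaconate genes, 12 in place of 7 for MHC class I presentation and 6 in place of 3 for osteoclast genes. The rises were 2 in place of 5 for NF-kB genes, 4 in place of 10 for ribosome biogenesis, 3 in place of 6 for fatty acid synthesis, and 10 in place of 17 for cytosolic ribosomal proteins. With plain library totals, falls were 19 for lysosomal genes, 12 for MHC class I presentation, 6 for osteoclast genes and 7 in place of 4 for mitochondrial ribosomal proteins, and rises 3 for NF-kB genes. Other lists with small counts also moved by more than 1.5 times. Depth limits genes near 0 counts, such as Hspa1a and Steap4 in their low group.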
